A study of Mus musculus with 33 samples.

Results

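The 10 core pluripotency genes examined here, Pou5f1, Sox2, Nanog, Sall4, Utf1, Lin28a, Fgf4, Dppa4, Dppa5a and Trim71, were followed through the chromatin and factor maps of WT and Uhrf1 KO mouse embryonic stem cells (mESCs) and of the embryoid bodies (EBs) made from them. They were chosen by name, and their starts were taken from the GENCODE vM1 annotation of the mm9 mouse genome, which holds 22367 protein-coding genes outside the mitochondrial genome. A gene was counted as marked where an H3K4me3 domain lay within 2 kb of its start, or an H3K27me3 or H3K9me3 domain within 5 kb of it. It was counted as bound where an Oct4, Sox2 or Nanog summit, the position of highest read pile-up in a peak, lay within 20 kb of the gene body. Uhrf1 was scored by an enriched window of 10 kb on the gene itself.

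The series comprised 33 ChIP-seq samples, of which 25 have a list of domains, summits or windows and 8 are inputs. WT cells were E14 mESCs, an established line kept undifferentiated with leukemia inhibitory factor on gelatin or on mouse embryonic fibroblast (MEF) feeders. KO cells were labelled as Uhrf1 KO E14 mESCs and were obtained, like the WT cells, from another laboratory, with no second KO line told apart, and EBs of both genotypes were started as hanging drops and collected at weeks 1, 2 and 3. Which of the plates carried feeders is not given, every group holds 1 library, and no difference given here has a replicate check or a p-value.

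Pou5f1 encodes Oct4, and together with Sox2 and Nanog it forms the core of the transcription factor network that keeps mESCs undifferentiated. Oct4 and Sox2 bind DNA side by side at a joint element, and many genes of the network, including their own, carry such elements in enhancers or promoters. H3K4me3 marks active and poised gene starts, H3K27me3 is laid down by Polycomb complexes, starts with both are called bivalent, and H3K9me3 is typical of heterochromatin. During differentiation pluripotency genes are silenced, and Uhrf1, which recruits the maintenance DNA methyltransferase, was deleted here to ask how it acts on these marks.

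The sequences below are those of selected sites of the 10 genes and do not stand for all their summits. They include all 4 of the 38 WT Oct4 summits of the members that held the joint element letters TTGTNATGC. They were read from the mm9 assembly (NCBIM37), each from 50 bp before to 50 bp after a WT summit, and written 5′ to 3′ along the strand that carries the element. Capitals mark the joint Oct4 and Sox2 element: the letters TTGTNATGC at the Pou5f1 enhancer, Sox2 and Utf1, the same followed by AAA at Nanog, and that longer form with another base in place of the C at Dppa5a. At Lin28a they mark the Sox letters CATTGT. The Pou5f1 site lay -1986 bp from the gene start, where the distal enhancer of the gene is known (chr17:35640946-35641046, minus strand). The Sox2 site lay 4054 bp from the gene start, downstream of the single exon (chr3:34552931-34553031, plus strand). The Nanog site lay -63 bp from the gene start, in the promoter (chr6:122657394-122657494, minus strand). The Utf1 site lay 1900 bp from the gene start, downstream of the gene (chr7:147131538-147131638, minus strand). At Lin28a the site lay -71 bp from the gene start (chr4:133574777-133574877, minus strand). The Dppa5a site was a Sox2 summit at -684 bp, where the WT Oct4 list had none (chr9:78216618-78216718, plus strand). A second Pou5f1 site, at -931 bp, held none of the letters searched and is shown because no factor was listed there in KO (chr17:35642001-35642101, plus strand).
Pou5f1 enhancer: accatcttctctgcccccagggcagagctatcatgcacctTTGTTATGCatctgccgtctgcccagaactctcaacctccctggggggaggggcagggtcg
Sox2 downstream site: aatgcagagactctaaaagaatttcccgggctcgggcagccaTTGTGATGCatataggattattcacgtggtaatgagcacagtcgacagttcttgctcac
Nanog promoter: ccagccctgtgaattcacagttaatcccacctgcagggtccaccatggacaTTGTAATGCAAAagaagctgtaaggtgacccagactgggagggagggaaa
Utf1 downstream site: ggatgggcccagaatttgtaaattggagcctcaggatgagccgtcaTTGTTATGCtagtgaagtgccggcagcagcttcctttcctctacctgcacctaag
Lin28a promoter: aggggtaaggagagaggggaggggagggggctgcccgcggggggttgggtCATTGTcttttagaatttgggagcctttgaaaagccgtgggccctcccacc
Dppa5a upstream site: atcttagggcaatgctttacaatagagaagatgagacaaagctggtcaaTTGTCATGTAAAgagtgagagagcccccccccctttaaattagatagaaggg
Pou5f1 proximal site: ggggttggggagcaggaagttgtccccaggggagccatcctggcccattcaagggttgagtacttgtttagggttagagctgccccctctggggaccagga

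In WT mESCs all 10 genes carried an H3K4me3 domain and an Oct4 summit, whereas in KO mESCs all 10 kept the H3K4me3 domain by this rule and 2, Pou5f1 and Sox2, had an Oct4 summit. These counts stand beside 63.2% of all coding genes with an H3K4me3 domain in WT mESCs and 57.0% in KO mESCs, and 30.1% with an Oct4 summit in WT and 1.10% in KO. Sox2 summits were listed at 9 of the 10 genes in WT and at 10 in KO, Dppa4 being the exception in WT, beside 18.8% and 57.7% of coding genes. Nanog summits were listed at 5 genes in WT (Pou5f1, Sox2, Sall4, Utf1 and Dppa5a) and at all 10 in KO, beside 7.51% and 27.4%. No member had a Uhrf1 window, which 9.84% of coding genes had. The lengths of the lists moved in the same directions: Oct4 had 12898 summits in WT and 576 in KO, Sox2 5190 and 20755, and Nanog 2390 and 10632. By the read totals that accompany the study, the WT library was the deeper one for each of these factors and for H3K9me3, and the mESC H3K27me3 library was also deeper in WT. Those totals were not used to scale the lists, and the part of depth in the counts was not tested. When the longer list of each factor was reduced to as many of its tallest summits as the shorter one holds, WT Oct4 was listed at 4 members, KO Nanog at 6 and KO Sox2 still at 10. Of the 576 KO Oct4 summits 87 lay on unplaced scaffolds, against 201 of 12898 in WT.

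**Figure D1:**
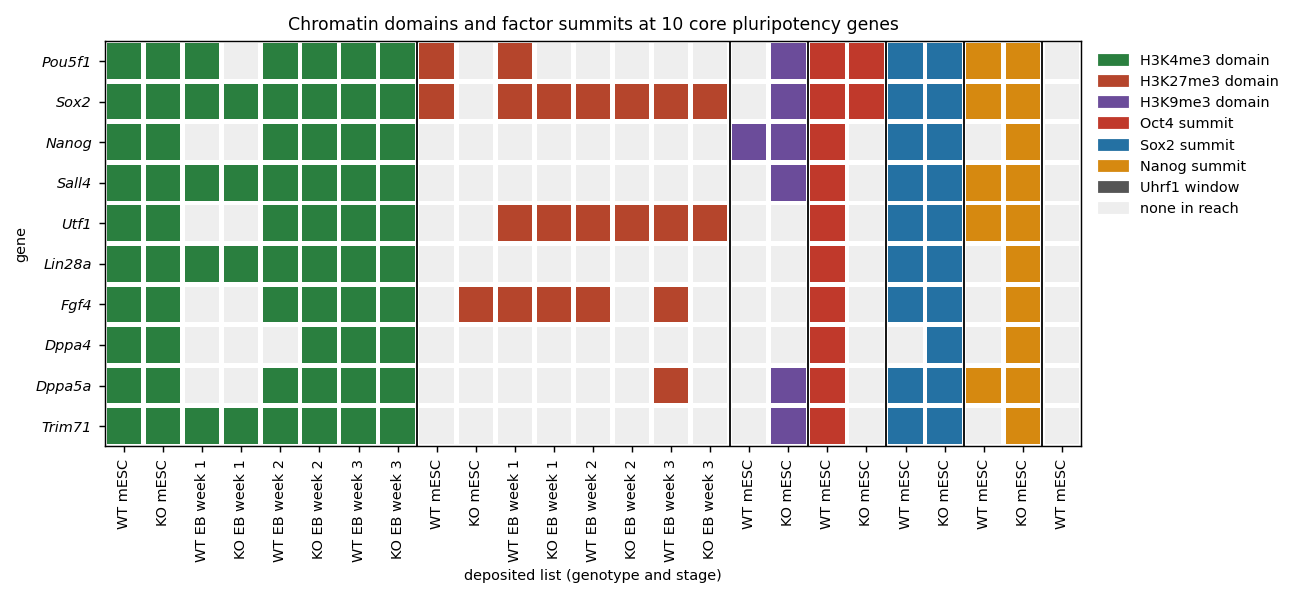
Presence of each mark or factor at the 10 genes (rows) in the 25 deposited lists (columns, by genotype and stage), with a filled square where a domain, summit or window lay within the distance used. The H3K4me3 columns are filled for all 10 genes in both mESC lists, for 5 and 4 genes at EB week 1 and for 10 genes in both week 3 lists.

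The targeted gene could not be checked from these lists, since Uhrf1 had an H3K4me3 domain over its start in all 8 H3K4me3 lists, KO included (76.7 kb long in WT mESCs and 16.9 kb in KO mESCs). As a check of the cell types, H3K4me3 domains were counted over markers. Of 6 mESC markers, 5 were marked in WT mESCs and 4 in KO mESCs, with Esrrb absent from both, and at EB week 3 the count was 5 in both genotypes. Fibroblast (feeder) markers were marked at 5 of 8 genes in WT mESCs, 4 in KO mESCs, 6 at week 1 and 8 at weeks 2 and 3 in both genotypes. Of 8 mesoderm and cardiac markers, all were marked in WT and 6 in KO at week 1, and 5 in both genotypes at week 3. Of 7 neuroectoderm markers found in the annotation 7 were marked in WT mESCs and 4 in KO mESCs, and of 8 endoderm markers 5 and 3. Over all coding genes a domain was listed at 63.2% in WT mESCs and 57.0% in KO mESCs. The shares were 62.1% and 57.0% at week 1, 65.7% and 64.5% at week 2, and 66.2% and 65.8% at week 3. In WT mESCs 5 fibroblast markers were bivalent and 0 had H3K4me3 without H3K27me3. These counts were 5 and 0 for mesoderm and cardiac markers, 5 and 2 for neuroectoderm, and 4 and 1 for endoderm. For mESC markers they were 1 and 4. The H3K4me3 lists held fibroblast and lineage markers in mESCs and mESC markers in week 3 EBs. The part of feeder cells, or of undifferentiated cells in EBs, in the values given here was not tested.

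H3K4me3 domains in mESCs were broad at most of the 10 genes. In WT they measured 74.1 kb at Trim71, a ubiquitin ligase and translational repressor, 57.2 kb at Pou5f1, 50.7 kb at Dppa5a, an RNA-binding protein of early embryos, and 44.2 kb at Sall4, a zinc finger partner of Oct4. Those of Lin28a, which blocks let-7 maturation, and of Sox2 were 40.3 and 35.1 kb long, and that of Nanog was 22.1 kb. The shortest were the domains of Utf1, a chromatin-bound cofactor, and Fgf4, a growth factor whose enhancer is a classical Oct4 and Sox2 target, both at 16.9 kb, and that of Dppa4, a nuclear protein of early embryos, at 6.5 kb. Some domains ran far past the gene, from -42.5 to 14.7 kb of the start at Pou5f1, -46.6 to 4.08 kb at Dppa5a and -2.84 to 37.5 kb at Lin28a. Other coding genes start within 20 kb of these 3 (Cchcr1 and Tcf19, Gsta2 and Ooep, and Dhdds), so the lengths need not belong to the member alone. The median of the 10 was 37.7 kb, against 16.9 kb over all coding genes with a domain. In KO the median was 24.7 kb, again against 16.9 kb, and both mESC lists used bins of 1300 bp. The share of bases in domains within 10 kb either side of the start did not fall with it. Its median over the members was 90.2% in WT and 93.5% in KO, beside 39.0% and 32.5% over all coding genes. Domains were shorter in KO at 6 members, longer at 3 (Nanog, 32.5 kb; Sall4, 54.6 kb; Trim71, 88.4 kb) and of the same length at Dppa4, beside 49.4% of coding genes with a shorter and 41.3% with a longer domain in KO.

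By length of the domain within 2 kb of the start, the largest shortfalls in KO were at Dppa5a (22.1 kb), Sox2 (13 kb), Pou5f1 (36.4 kb) and Lin28a (27.3 kb). The KO domain of Sox2 ran from -13.1 kb and stopped 0.127 kb short of the gene start, so that Sox2 was the member whose KO mESC domain did not cover its start. Within 10 kb either side of the Sox2 start 100% of bases lay in H3K4me3 domains in WT and 87.0% in KO. Further domains thus lay close by, and the 13 kb is not all the H3K4me3 there. The same share was 70.4% in WT and 100% in KO at Dppa5a, 100% in both at Pou5f1 and 64.2% in both at Lin28a. It was lower in KO at Fgf4 (84.5% and 39.0%) and Utf1 (84.5% and 78.0%). At Fgf4 the KO domain was 7.8 kb long, and at Utf1 15.6 kb. The mean read count per bin was lower in KO at 9 of 10 members, beside 82.9% of coding genes: Nanog had 29.9 in WT and 18.5 in KO, Dppa4 28.9 and 14.9, Sox2 26.4 and 10.7, and Pou5f1 19.9 and 10.4. Dppa5a was the exception, with 9.99 in WT and 12.7 in KO. By percentile within its own list, the count stood lower in KO at 7 of the 10, beside 65.3% of coding genes, as at Nanog (98.2 in WT and 89.0 in KO) and Pou5f1 (84.6 and 41.6). It stood higher in KO at Lin28a (63.8 and 74.8), Fgf4 (51.2 and 67.3) and Dppa5a (20.02 and 61.96).

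At EB week 1 H3K4me3 separated the members into those with a domain and those without. In WT it was absent from 5 of the 10 genes marked in mESCs (Nanog, Utf1, Fgf4, Dppa4 and Dppa5a), beside 7.60% of coding genes marked in WT mESCs. In KO it was absent from 6, the same 5 and Pou5f1, beside 10% (1275 of 12740). Sox2, Sall4, Lin28a and Trim71 had a domain in both genotypes, with lengths in WT of 7.6, 9.6, 10.4 and 10.8 kb. In KO those of Sox2, Sall4 and Lin28a measured 7.7, 8.4 and 5.6 kb, and Trim71 had a pair of 1.4 and 6.3 kb. At Pou5f1 the WT week 1 domain was 1.6 kb long and began 1.02 kb inside the gene, whereas the nearest KO domain lay 7.67 kb away. The absences were not near misses for Dppa4, whose nearest domain was 706.6 kb away in WT and 582.7 kb in KO, nor for Dppa5a (73.2 and 79.4 kb) or Fgf4 (19.7 and 33.0 kb). At Nanog a domain lay 3.91 kb from the start in WT and 4.56 kb in KO, and at Utf1 5.11 and 6.11 kb. Over all coding genes 62.1% were marked in WT and 57.0% in KO at week 1, beside 5 and 4 of the members.

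By week 3 a domain was again listed at every one of these genes, at 5 of the 5 in WT and 6 of the 6 in KO, beside 53.2% and 74.0% of coding genes that had likewise been marked in mESCs and not at week 1. Week 2 lay between, with 9 members marked in WT and 10 in KO, beside 65.7% and 64.5%, and week 3 had 10 in both, beside 66.2% and 65.8%. Dppa4 was the last, without a domain in WT at week 2 (nearest 194.2 kb away), with 2.45 kb in KO at week 2, and with 3.2 kb in WT and 6.4 kb in KO at week 3. Nanog had 10.8 kb in WT and 15.8 kb in KO at week 2, and 22.4 and 18.4 kb at week 3, where the WT domain reached from -12.7 to 9.69 kb around the start, beside -12.9 to 9.19 kb in WT mESCs. Dppa5a in WT at week 2 was counted only because a domain of 3.2 kb began 1.98 kb downstream of the start, just inside the limit of 2 kb, and in KO its domain covered the start (16.45 kb). Of the 9 WT members at week 2, 4 had a domain over the start itself (Sox2, Nanog, Sall4 and Lin28a). Sox2 had domains of 35.2 and 34.65 kb at week 2 and of 35.6 and 34.8 kb at week 3 in WT and KO, and 35.1 kb in WT mESCs. Bins were 400 or 350 bp in the EB lists against 1300 bp in the mESC lists, so lengths across stages are set side by side and not compared.

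**Figure D2:**
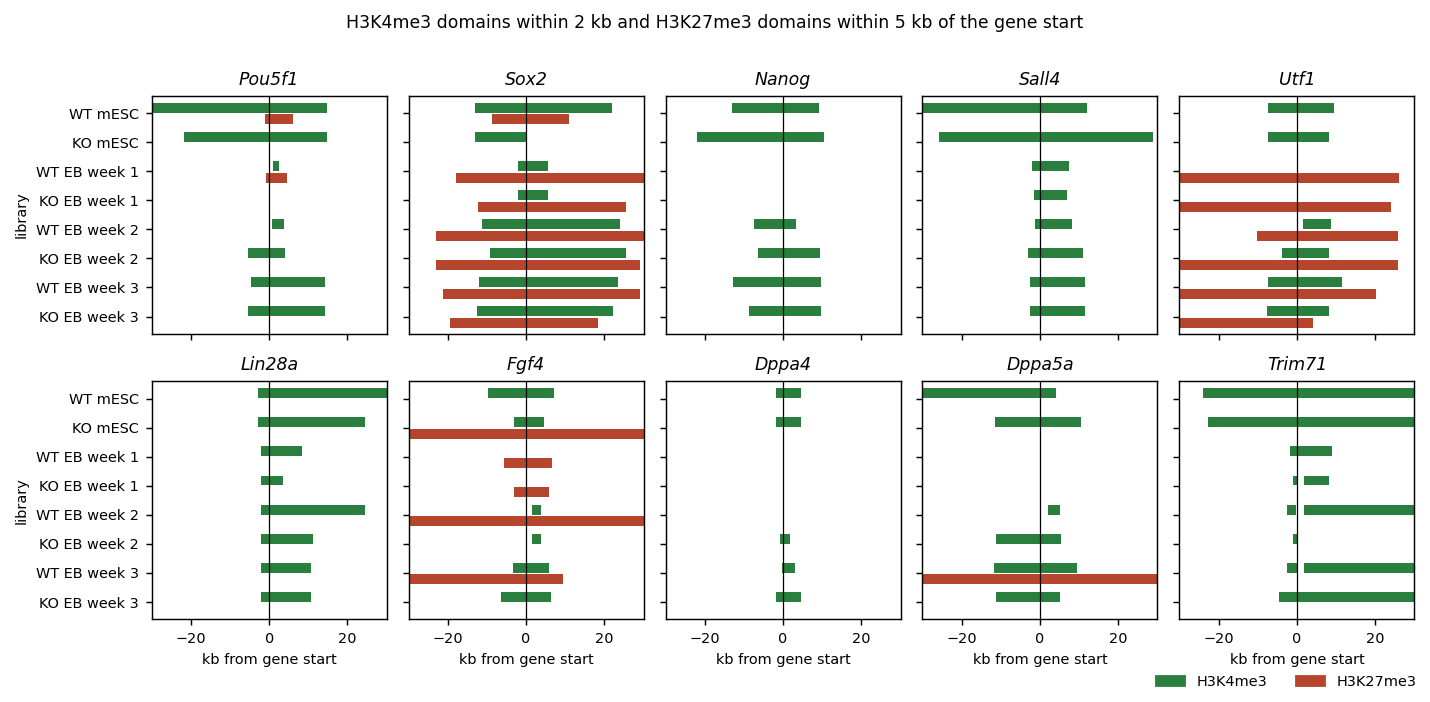
Extent of the H3K4me3 domains within 2 kb (green) and of the H3K27me3 domains within 5 kb (red) of the start of each gene, in kb from the start along the gene's strand, for the 8 combinations of genotype and stage. Bars that reach past the edge of a panel are cut there, and at Dppa4 the rows of week 1 are empty in both genotypes.

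H3K27me3 was listed at few members. In WT mESCs it lay at Pou5f1 (7.2 kb, with a mean read count of 18.7 per bin at percentile 99.5 of its list) and Sox2 (19.8 kb, 9.27 per bin, percentile 93.6), so that these 2 genes were bivalent and the other 8 active by domains, beside 34.9% of coding genes with H3K27me3 and 18.3% bivalent. Neither was bivalent when domains had to lie above the median score of their list. In KO mESCs neither had a domain, and the whole KO list held 722 domains against 8161 in WT and reached 7.57% of coding genes. The median of the mean read count per bin over its domains was 0.914, against 4.93 in WT, so the absence from Pou5f1 and Sox2 rests on a short list of domains with low read counts. The only member listed in KO was Fgf4, in a domain of 366 kb with a mean read count per bin of 0.00420, and it had none when domains were required to average 1 read per bin. At week 1 Sox2, Utf1 and Fgf4 carried H3K27me3 in both genotypes and Pou5f1 in WT alone (5.25 kb), 4 members in WT and 3 in KO beside 20.5% and 21.1%. Week 2 had Sox2, Utf1 and Fgf4 in WT and Sox2 and Utf1 in KO, beside 29.8% and 24.1%. Week 3 had these 3 and Dppa5a in WT, again with Sox2 and Utf1 alone in KO, beside 33.2% and 19.5%.

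Sox2 had the highest H3K27me3 mean read count among the members in each of the 6 EB lists. Its mean read count per bin was 21.7 in WT and 21.8 in KO at week 1, at percentiles 96.0 and 98.7 of their lists, and 14.1 and 6.88 at week 3, at percentiles 96.1 and 86.5. With H3K4me3 beside it, the Sox2 start was bivalent at all 3 EB stages in both genotypes. Utf1 and Fgf4, which had no H3K4me3 domain at week 1, were then classed as repressive in both genotypes, while Nanog, Dppa4 and Dppa5a had neither mark, joined in KO by Pou5f1. Utf1 was bivalent from week 2 on in both genotypes, and Fgf4 was bivalent in WT and active in KO at weeks 2 and 3. Domains of Utf1 measured 87.5 and 133.2 kb at week 1, 36 and 390.6 kb at week 2, and 165.6 and 93.6 kb at week 3 in WT and KO, with read counts at percentiles 32.0 to 58.1 of the 6 EB lists. No H3K27me3 domain was listed within 5 kb of Nanog, Sall4, Lin28a, Dppa4 or Trim71 in any of the 8 lists.

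H3K9me3 was listed at 1 member in WT mESCs and at 6 in KO mESCs. In WT it was Nanog, in a domain of 19.8 kb from -12.7 to 7.09 kb, nearly the span of its H3K4me3 domain. In KO it was Pou5f1, Sox2, Nanog, Sall4, Dppa5a and Trim71, beside 29.7% of coding genes in WT and 40.1% in KO, and of the 9 members without H3K9me3 in WT 5 had it in KO, beside 25.4%. The KO domains differed in length: those of Pou5f1 (50.4 kb) and Sall4 (55.8 kb) stood at percentiles 21.3 and 23.6 of the lengths in the list, and those of Nanog (1202.4 kb) and Dppa5a (1396.8 kb) at 94.8 and 95.9. The median domain over marked coding genes was 588.6 kb in KO and 172.8 kb in WT, and the part of domain length in the KO count was not tested. The Pou5f1 domain had the highest mean read count, 15.9 per bin, at percentile 92.3 of its list, followed by Nanog (percentile 73.7), Sall4 (68.1), Sox2 (33.7), Trim71 (33.4) and Dppa5a (31.0). All 6 genes carried an H3K4me3 domain in the same cells, and the KO list held 3118 domains against 11285 in WT. Utf1, Lin28a, Fgf4 and Dppa4 had no H3K9me3 domain in either genotype.

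Oct4 binding was dense around the 10 genes in WT mESCs, with 38 summits in all, from 1 at Dppa4 to 7 at Sox2, and a median height of 45.5 reads against 37 over the whole list. In KO 2 remained, which is 5.26% of the 38, beside 1.89% of all WT Oct4 summits with a KO Oct4 summit within 100 bp. At the gene level 8 of the 10 members had no Oct4 summit in KO, beside 96.5% of coding genes bound in WT. The 2 kept summits were at the Pou5f1 enhancer, where the height was 157 reads in WT and 38 in KO, and 18.6 kb downstream of the Sox2 start, with 90 reads in WT and 24 in KO. The Pou5f1 summit was among the tallest of the WT list, at percentile 99.9, and stood at percentile 80.4 of the KO list. Lower KO heights were found at 98.0% of all Oct4 summits shared by the genotypes.

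Other WT Oct4 summits of comparable height had no Oct4 partner in KO. They included the site at -3613 bp of Sox2 (125 reads, percentile 99.1), the Sox2 downstream site (118 reads, 98.8), the Nanog promoter (116 reads, 98.7), the Utf1 downstream site (100 reads, 96.9) and the Pou5f1 proximal site (95 reads, 96.1). The kept Sox2 site, with 90 reads, lay under these 5, and the kept Pou5f1 summit stood above them. Over the whole lists, the 244 KO Oct4 summits shared with WT had a median WT height of 97.5 reads, against 37 for the WT list. At Lin28a the 4 WT summits were of 20 to 47 reads, at Fgf4 the 5 of 19 to 50 reads and at Trim71 the 5 of 31 to 59 reads, and none had an Oct4 partner in KO. The Fgf4 summit of 19 reads lay in the 3′ UTR, where its classical enhancer is known. The only Oct4 summit counted for Dppa4 lay 25.4 kb from its start and 1382 bp from the start of Dppa2, and of the 38 summits 35 had the member as the nearest coding gene start.

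Sox2 or Nanog was listed in KO at 23 of the 36 WT Oct4 summits without an Oct4 partner. At 19 of the 38 a Sox2 or Nanog summit found only in KO lay within 100 bp, which is called replaced here, beside 36.2% of all WT Oct4 summits. At 4 more (10.5%) the KO Sox2 or Nanog summit was also in the WT list, beside 1806 of all 12898, and at 13 (34.2%) no factor was listed in KO, beside 47.9%. Counted together, a KO Sox2 or Nanog summit stood at 60.5% of the 38, beside 50.2% of all. The factor with a KO-only summit was Nanog alone at 7 of the 19, Sox2 alone at 6, and both at 6. These are 18.4%, 15.8% and 15.8% of the 38, beside 10.2%, 15.9% and 10.1% of all WT Oct4 summits. This split leaves out a KO summit of the other factor that WT also had. At the Nanog promoter, counted under Nanog, Sox2 had 95 reads in KO. At -3613 bp of Sox2, counted under Sox2, Nanog had 48 reads in KO. Sites counted under 1 factor are therefore not all sites of that factor alone. By gene, both Nanog summits, 4 of 5 at Dppa5a and 3 of 5 at Fgf4 and at Trim71 were replaced, against 1 of 4 at Lin28a and 0 of 3 at Pou5f1. The KO lists of Sox2 and Nanog were the longer ones, and the part of list length in these shares was not tested.

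**Figure D3:**
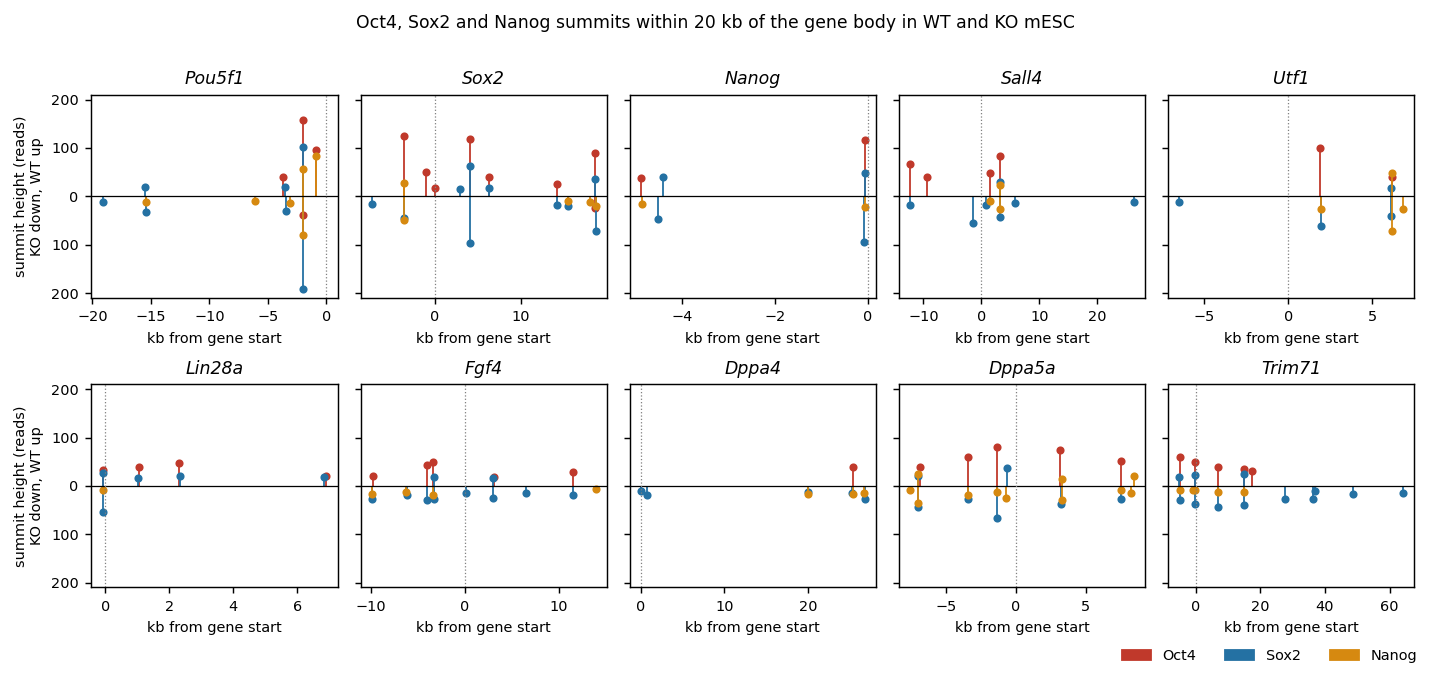
Summits of Oct4 (red), Sox2 (blue) and Nanog (orange) within 20 kb of each gene body, by distance from the gene start in kb (the axis differs between genes) and by height in reads, with WT upwards and KO downwards. Red points lie almost only above the line, and the tallest KO summit is that of Sox2 at the Pou5f1 enhancer, with 191 reads.

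At the sites whose sequences are printed above, the 3 factors were listed as follows. At the Pou5f1 enhancer Sox2 had 103 reads in WT and 191 in KO, the tallest summit of any factor at the members, and Nanog had 56 and 80. At the Nanog promoter Sox2 had 49 reads in WT and 95 in KO, and Nanog none in WT and 22 in KO, so that Oct4 was missing there from a site with both other factors. At the Sox2 downstream site Sox2 had 63 and 97 reads and Nanog was listed in neither genotype. At the Utf1 downstream site neither factor was listed in WT, and in KO Sox2 had 61 reads and Nanog 26. At the Lin28a promoter Sox2 had 27 reads in WT and 54 in KO at the same base, -69 bp, and Nanog 9 in KO. At the Dppa5a upstream site Sox2 had 37 reads in WT and none in KO within 100 bp, while Nanog had 24 in KO. The Pou5f1 proximal site had Oct4 (95 reads) and Nanog (84 reads, percentile 99.6) in WT and no factor in KO, which made it the tallest Nanog summit of the members without a KO partner.

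Where Sox2 or Nanog was shared between genotypes, KO summits were taller. Of the 22 WT Sox2 summits of the members 15 had a KO partner (68.2%), beside 64.6% of the WT Sox2 list, and all 15 were taller in KO, with a median of 24 reads in WT and 42 in KO, beside 77.8% of shared Sox2 summits overall. For Nanog 6 of 8 were shared (75.0%), beside 81.5%, and all 6 were taller in KO, with medians of 26 and 41.5 reads, beside 60.3% overall. By percentile within the list all 15 and all 6 stood higher in KO, beside 3016 of 3352 shared Sox2 and 1732 of 1947 shared Nanog summits of the whole lists. The KO lists were longer and had lower median heights, 18 reads against 22 in WT for Sox2 and 12 against 21 for Nanog. A summit of equal height can thus stand at a higher percentile in KO, and these percentiles are no separate sign of taller summits. In KO 25 of the 49 Sox2 summits of the members had a Nanog summit within 100 bp (51.0%), beside 28.5% of all KO Sox2 summits. In WT 16 of the 38 Oct4 summits had Sox2 within 100 bp (42.1%), beside 24.2%, 5 had Nanog (13.2%), beside 12.9%, and 3 had both (7.89%), beside 9.46%.

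**Figure D4:**
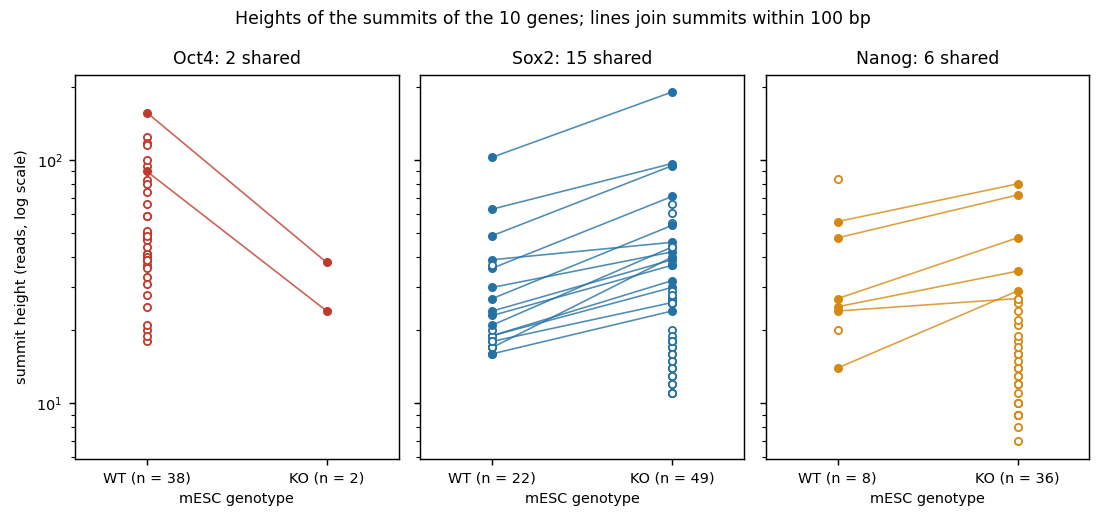
Height in reads (log scale) of every Oct4, Sox2 and Nanog summit of the 10 genes in WT and KO mESCs, with filled points and lines for summits shared within 100 bp and open points for the others. Lines slope down for the 2 shared Oct4 summits and up for all 15 shared Sox2 and all 6 shared Nanog summits.

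All 5 members without a Nanog summit in WT (Nanog, Lin28a, Fgf4, Dppa4 and Trim71) had one in KO, beside 21.8% of coding genes. The tallest of each were of 22, 9, 18, 17 and 13 reads, beside a median of 12 over the KO list. At Dppa4 the 3 Nanog summits lay nearer to the start of Dppa2 than to its own, whereas 2 of its 5 KO Sox2 summits lay at 49 and 833 bp of the Dppa4 start, with 11 and 18 reads. At Trim71, whose gene body is 53095 bp long, 4 of the 9 KO Sox2 summits were nearest to Ccr4. New KO Sox2 summits of greater height stood at -1374 bp of Dppa5a (66 reads), at the Utf1 downstream site (61 reads), at -1539 bp of Sall4 (55 reads), and at -3599 bp of Sox2 and 6978 bp of Trim71 (44 reads each). Over the 6 lists together the members had 8 (Nanog) to 23 (Sox2 and Dppa5a) summits, with a median of 15.5, against 1 over all coding genes.

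The letters of the joint element were rare in all lists. The full form, TTGTNATGC followed by AAA, occurred on either strand within 50 bp of 1 of the 38 WT Oct4 summits, that of the Nanog promoter, beside 0.764% of 12697 WT Oct4 summits on assembled chromosomes. With the shorter letters TTGTNATGC, which hold the full form within them and were added after the sequences had been seen, the Pou5f1 enhancer, the Sox2 downstream site and the Utf1 downstream site joined it, making 4 of 38 (10.5%) beside 4.86%. These 4 were among the 5 tallest WT Oct4 summits of the members, with 157, 118, 116 and 100 reads. A looser full form, with any base in place of its C, lay at 2 of 22 WT Sox2 summits, beside 1.56%, the Nanog promoter and the Dppa5a upstream site. The octamer ATGCAAAT lay at 2 of 38 WT Oct4 summits, beside 8.82%, CATTGT at 5, beside 7.88%, and CTTTGT at 5, beside 13.7%. In KO the shorter letters were found at 4 of 49 Sox2 summits, beside 2.50%, and at 3 of 36 Nanog summits, beside 3.18%, and 1 of the 2 KO Oct4 summits, that of the Pou5f1 enhancer, held them.

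The starts themselves were of 2 sorts by CpG ratio, though not by GC content, which was 60.4% at Pou5f1 and 56.7% at Utf1. In the 1 kb around the start the ratio of observed to expected CpG was 0.862 at Trim71, 0.833 at Sox2, 0.797 at Utf1 and 0.773 at Fgf4, against a median of 0.549 over coding genes. It was 0.443 at Dppa5a, 0.407 at Sall4, 0.389 at Dppa4, 0.373 at Lin28a, 0.335 at Pou5f1 and 0.287 at Nanog. The 3 genes with an H3K27me3 domain in both genotypes at week 1 (Sox2, Utf1 and Fgf4) were among the 4 CpG-rich starts, and Nanog, Dppa4 and Dppa5a, with neither mark at week 1, were among the 6 poor ones. This is a description over 10 genes with exceptions both ways: the CpG-rich Trim71 had no H3K27me3 domain in any list, whereas the CpG-poor Pou5f1 had one in WT mESCs and WT week 1 EBs, and the CpG-poor Dppa5a in WT week 3 EBs.

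Uhrf1 windows lay at a distance from all members. The nearest was 43.0 kb from Pou5f1, followed by Utf1 (59.0 kb), Dppa5a (74.9 kb), Dppa4 (133.8 kb) and Sox2 (178.6 kb), and the farthest was 2419 kb from Lin28a. Their median was 199.5 kb, against 172.1 kb over all coding genes, and their percentiles among coding genes ran from 25.2 to 99.5.

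The wider naive network was counted by the same rules over 20 genes, all of them found in the annotation. H3K4me3 was listed at 19 in WT and 17 in KO mESCs, beside 63.2% and 57.0% of coding genes. It was listed at 15 and 9 at week 1, beside 62.1% and 57.0%. The counts were 15 and 16 at week 2, beside 65.7% and 64.5%, and 18 and 19 at week 3, beside 66.2% and 65.8%. Esrrb, an orphan nuclear receptor of the naive state, lacked a domain at its annotated start in all 8 lists. Nr0b1 and Tcl1 were absent with it in KO mESCs and at weeks 1 and 2, and Tet1, a DNA demethylase, and Dppa2 were absent in both genotypes at week 1. Oct4 summits were listed at 19 in WT, Stat3 being the exception, and at 4 in KO (Esrrb, Tfcp2l1, Lifr and Lefty1), beside 30.1% and 1.10%. Sox2 summits were listed at 17 and 19, with Klf4 absent from both, beside 18.8% and 57.7%. Nanog summits were listed at 14 and 20, beside 7.51% and 27.4%. H3K9me3 was listed at 4 in WT (Klf4, Zfp42, Tcl1 and Mycn) and 10 in KO mESCs, beside 29.7% and 40.1%. H3K27me3 was listed at 6 in WT and 2 in KO mESCs, beside 34.9% and 7.57%, and at 12 and 9 at week 1, beside 20.5% and 21.1%. At week 2 it was listed at 6 and 5, beside 29.8% and 24.1%, and at week 3 at 6 and 4, beside 33.2% and 19.5%. A Uhrf1 window was listed at 1, Nr5a2, beside 9.84%. The genes of the Oct4 and H3K9me3 counts of 4 and of the Uhrf1 count of 1 were named after their values had been seen.

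Genes whose pattern was most like that of the 3 core factors were found by counting the lists, of 25, in which presence differed. For Sox2 it was Ccs, for Nanog Rnf125, and for each none of the 25 lists differed and no other gene tied. For Pou5f1 it was Tead1, the gene with the most summits among 9 tied ones, with 2 lists that differed (H3K4me3 in KO and H3K27me3 in WT, both at week 1).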

How the data were processed

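ChIP-seq reads were mapped by the authors to mm9 with Bowtie2 2.1.0, per the labels and methods. Histone domains were called by them with RSEG and summits with MACS, 1 library per list and no pooling, and Uhrf1 windows by ChIP over input. The deposited domain files hold a signal (mean reads in each bin of the domain) with a domain score, and the deposited summit files hold a signal, the reads at the summit. The methods scale read counts to mapped reads without saying whether that holds for these values. Read totals per library accompany the study but were not used here, so no interval or limit was set and percentiles within a list are given. Inputs have no list and were not analysed here.

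Distances were computed in Python 3.11 with numpy 2.4.6 to GENCODE vM1 genes, with the NCBIM37 sequence for motifs (within 50 bp of a summit) and CpG. No list reached past a chromosome end, and 9 unplaced scaffolds have no sequence here. The reading of states and fates was tested on simulated data, where 200 of 200 placed sites were recovered in each of the 4 tests. Groups came from the labels. Members, gene lists and rules were chosen with earlier results of these data known, all members were named, and other genes by rules on presence. No test was made, since each group has 1 library. Symbols missing from the annotation were looked up by RefSeq synonym, and Sox1 was not matched. Alternatives were other distances, domains above the median score, taller summits only and other letters.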

Additional observations from a re-analysis of the deposited data

Results flagged for a closer look

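The difference between KO and WT in the number of members with an H3K4me3 domain within 2 kb went in opposite directions at 2 stages. At EB week 1 the difference between KO and WT was -1 (4 against 5 genes, Pou5f1 being marked in WT alone), and at EB week 2 it was 1 (10 against 9 genes, Dppa4 being marked in KO alone). In mESCs and at week 3 all 10 genes were marked in both genotypes. With 1 library per group the difference between the stages was not tested, and it rests on 1 gene at each stage. When the domain had to cover the start, WT and KO counts were 10 and 9 in mESCs, 4 and 4 at week 1, and 4 and 9 at week 2. The week 1 difference thus depended on the 2 kb limit.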

How the results depend on the processing

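Of 191 counts under other settings, 163 stayed within 1.5 times the reported one. H3K4me3 in WT EB week 2 was at 4 members when the domain had to cover the start. With domains above the median score, H3K27me3 was at 0 members in WT mESCs and 1 in KO week 3, and H3K9me3 at 0 in WT mESCs. With a mean read count of at least 1 (added after seeing the data), H3K27me3 was at 0 in KO mESCs. Within 5 kb KO Oct4 was at 1 member. Reduced to the tallest summits of the shorter list, WT Oct4 was at 4 members and KO Nanog at 6. Promoter classes with domains above the median score, also added later, gave in WT 0 bivalent and 1 without a mark in mESCs, 1 bivalent at week 1, 1 bivalent, 1 repressive and 2 without a mark at week 2, and 1 without a mark at week 3. In KO they gave 0 bivalent, 1 repressive and 1 without a mark in mESCs, 1 repressive at week 1, 5 active and 3 without a mark at week 2, and 1 bivalent at week 3. The letters TTGTNATGC, added later, were at 4 WT and 1 KO Oct4, 3 WT and 4 KO Sox2, and 1 WT and 3 KO Nanog summits. The other settings listed in this paragraph are stricter than the main ones, so fewer domains or summits enter by construction. These shorter letters, in contrast, match more sites in the same summits, and any other cause was not tested. The fates of WT Oct4 summits and the Uhrf1 count stayed within 1.5 times under all their alternatives. No paired analysis was possible because each group has 1 library. With no replicates and lists not scaled to depth here, absence from a list means only that nothing was called there.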
